A study of Mus musculus with 25 samples.

Results

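The genes described here are the mouse zinc finger genes named Zfp930 to Zfp999, together with Zfp600, Rex2 and Zfp534. They were chosen by symbol, after several of them were known to be lower in Dot1L knockout cells, so their changes in those cells are described and support nothing further. The rule found 70 genes in the table of mouse embryonic stem cells (mESCs) and 35 of these in the table of embryos. Of the 70, 17 lie in 1 cluster on chromosome 4, 48 lie elsewhere and 5 have no RefSeq position. Another 20 were found in the embryo table only under an older symbol and are given apart.

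The study removed or inhibited Dot1L, a methyltransferase whose target is lysine 79 of histone H3 (H3K79). The mESCs were of the v6.5 line and untreated, either wild type (WT, 3 RNA libraries) or Dot1L KO (2 RNA libraries). Each genotype also had 2 peak lists for H3K79me2 and 2 for H3K79me3, from chromatin immunoprecipitation. The 8-cell embryos were genetically wild type, from a cross of B6D2F1 with Cast/EiJ, collected at 56 hours post fertilization in pools of 30 to 35, after DMSO (2 pools) or the Dot1L inhibitor SGC0946 (2 pools). The labels do not say how many knockout clones were used, which part of Dot1l was deleted, or whether the libraries of a group came from separate cultures. P-values therefore measure only the spread between these libraries, which may be technical.

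Most genes with these names encode proteins with arrays of C2H2 zinc fingers, which bind DNA, and many also carry a KRAB domain. KRAB domains bind Trim28, which brings the histone H3 lysine 9 methyltransferase Setdb1, and many such proteins silence retrotransposons in embryonic cells. The genes multiplied by tandem duplication, so neighbours in a cluster are often near copies whose reads cannot be told apart. Methylation of H3K79 is deposited over the 5′ part of transcribed genes.

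The chromosome 4 cluster spans 2.338 Mb, at chr4:145510759-147849126 of the RefSeq annotation of GRCm38.p6. In order it holds Zfp990, Zfp980, Zfp987, Zfp600, Zfp992, Zfp981, Zfp993, Rex2, Zfp978, Zfp991, Zfp988, Zfp982, Zfp985, Zfp979, Zfp534, Zfp984 and Zfp933. Annotated gene spans run from 20.4 kb for Zfp992 to 478.6 kb for Zfp993, and that of Zfp993 overlaps those of Zfp981 and Rex2. The span of Zfp978 likewise overlaps those of Zfp991 and Zfp988. Smaller groups lie on chromosome 17 (10 genes), chromosome 2 (9), chromosome 7 (4) and chromosome 8 (3), and 22 genes are in no chain of 3 or more members. Among these 22, Zfp934 and Zfp935 are neighbours on chromosome 13, and Zfp940 and Zfp974 are a pair on chromosome 7.

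The cluster genes share sequence next to their starts, which shows how alike the copies are. RefSeq windows of 250 bases before and 50 after the start were found for 58 of the 70 genes, including 13 of the 17 in the cluster. Where a gene had several windows, the one most like that of Rex2 is given. Over the 250 bases before the start, Zfp600 was identical to Rex2 at 99.6% of positions and Zfp979 at 96.4%. The values were 78.4% for Zfp534, 76.8% for Zfp981 and 69.6% for Zfp984. They were between 81.6 and 90.4% for Zfp980, Zfp982, Zfp985, Zfp987 and Zfp988. All are shares of 250 bases, of which 216, 221 and 217 were aligned for Zfp534, Zfp981 and Zfp984. An annotated start at another point thus lowers the value as well as differing bases. Zfp993 and Zfp933 had no such likeness, with 1.2% and 0.4% of positions in a gapped alignment with free ends. Only 3 and 1 of their bases were aligned.

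The run of 20 bases held by the most cluster genes, AAGAACTGGGAAGCTAATTA, begins between −157 and −112, counted from the start, in 9 of the 13. These are Rex2, Zfp534, Zfp600, Zfp979, Zfp980, Zfp982, Zfp985, Zfp987 and Zfp988. On either strand, no other of the 32851 RefSeq windows holds it (9 windows, 0.0274%). The 10-base run AGCTAATTAA, which overlaps its end, is also in Zfp981 and Zfp984, and 22 windows in all hold it (0.067%). Both runs were picked from these windows, 4 runs of 20 bases and 8 of 10 were held by as many cluster genes, and a shared run is a description of likeness, not a binding site. The 170 bases before the start are shown for Rex2 at chr4:147021680-147021849 (+), Zfp600 at chr4:146156657-146156826 (+) and Zfp534 at chr4:147702632-147702801 (-), which hold the longer run. Zfp981 at chr4:146514750-146514919 (+) and Zfp984 at chr4:147809789-147809958 (-) hold the shorter run, and Zfp933 at chr4:147848419-147848588 (-) holds neither. Each is on GRCm38.p6, 5′ to 3′ along the gene, with the longest run present in capitals.
Rex2: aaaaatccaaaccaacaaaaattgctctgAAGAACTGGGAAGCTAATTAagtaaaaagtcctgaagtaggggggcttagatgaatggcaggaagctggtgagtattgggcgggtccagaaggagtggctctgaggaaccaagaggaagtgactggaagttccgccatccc
Zfp600: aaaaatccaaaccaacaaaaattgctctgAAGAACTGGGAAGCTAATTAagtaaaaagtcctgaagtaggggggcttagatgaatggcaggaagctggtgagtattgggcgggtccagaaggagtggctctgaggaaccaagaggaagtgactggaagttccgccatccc
Zfp534: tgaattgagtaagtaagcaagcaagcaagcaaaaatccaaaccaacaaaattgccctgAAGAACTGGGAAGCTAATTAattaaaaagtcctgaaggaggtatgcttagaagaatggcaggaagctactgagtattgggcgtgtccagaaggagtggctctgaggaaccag
Zfp981: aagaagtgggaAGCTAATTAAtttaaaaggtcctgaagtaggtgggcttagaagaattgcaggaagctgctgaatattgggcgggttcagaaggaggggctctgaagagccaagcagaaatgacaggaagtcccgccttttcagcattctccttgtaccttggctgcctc
Zfp984: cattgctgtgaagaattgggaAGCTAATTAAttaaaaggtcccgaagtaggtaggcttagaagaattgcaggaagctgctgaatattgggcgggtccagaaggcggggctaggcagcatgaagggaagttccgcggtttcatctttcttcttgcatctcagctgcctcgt
Zfp933: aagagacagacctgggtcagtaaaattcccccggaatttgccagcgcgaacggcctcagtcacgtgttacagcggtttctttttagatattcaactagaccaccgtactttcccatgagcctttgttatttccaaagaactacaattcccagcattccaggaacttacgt

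The 170 bases of Rex2 and Zfp600 read alike from end to end. Zfp981 and Zfp984 differ from them within the 20-base run but keep its end. Of the 11 genes outside the 70 that hold the shorter run, only Gm13212 lies within the chromosome 4 span.

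The mESC libraries held 26860527 to 33755064 estimated counts and the embryo libraries 24950199 to 32479590 counts. Dot1l counts in the 3 WT mESC libraries were 2878, 3151 and 2849, and those in the KO libraries 2319 and 2201, a log2 fold change of −0.39 (SE 0.06; edgeR adjusted p of 1.6e-04). The knockout libraries thus kept most Dot1l counts, while H3K79me2 gave 66834 and 64084 called peaks in WT and 16 and 12 in KO. Of 8 pluripotency markers, 8 were at 1 CPM or more on average, and 4 were called lower and 1 higher in KO, with summed levels of 4501 to 4547 CPM in WT and 3984 to 4141 CPM in KO. Summed markers of primitive endoderm were 76.1 to 80.1 CPM in WT and 132 to 141.7 CPM in KO (6 of 8 called higher), and those of fibroblasts 182 to 228 and 234 to 283 CPM (4 of 8 higher). Summed markers of cumulus cells were 118 to 139.6 and 134 to 155 CPM (1 of 8 higher), those of the oocyte 5.97 to 6.75 and 3.97 to 4.23 CPM (1 of 6 at 0 throughout), and those of cleavage embryos 2044 to 2074 and 1417 to 1537 CPM (6 of 8 lower, 2 higher). The part of these cell types in the changes below was not tested, and in bulk RNA fewer cells of a type cannot be told from less RNA per cell.

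In KO mESCs, all 17 genes of the chromosome 4 cluster were lower than in WT.
Values are CPM, counts scaled to library size with TMM, a library scaling of edgeR. Summed over the cluster, the level was 3835, 4098 and 3915 CPM in WT and 1174 and 1349 CPM in KO, or 31.9% of WT. The genotypes were far apart and the libraries of each close together. Of 19532 genes tested over the whole table, 21.6% were called lower in KO (edgeR, adjusted p under 0.05). The count for the cluster was 17 of 17, and 14 of these had a log2 fold change at or under −1, against 3.04% of all genes called so. Their median log2 fold change was −1.51, against 0.00 for all tested genes (0.0008).

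The largest decrease among them was that of Zfp981 (ENSMUSG00000056300), with 336, 362 and 343 CPM in WT and 63.6 and 66.8 CPM in KO. Its log2 fold change was −2.41 (SE 0.05). Rex2 (ENSMUSG00000067919) had 617, 658 and 624 CPM in WT and 122 and 141 CPM in KO, a log2 fold change of −2.26 (SE 0.06). Rex2 stands for reduced expression 2 and is a different gene from Rex1, the pluripotency marker now called Zfp42.

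Zfp600 (ENSMUSG00000066007) had 231, 254 and 235 CPM in WT and 49.1 and 55.3 CPM in KO, a log2 fold change of −2.20 (SE 0.06). For Zfp534 (ENSMUSG00000062518) the values were 174, 189 and 176 CPM in WT and 48.9 and 61.4 CPM in KO. Its log2 fold change was −1.70 (SE 0.08). In all 4 genes every WT library was far above both KO libraries.

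Zfp978 had 158, 167 and 163 CPM in WT and 35.1 and 41.4 CPM in KO (log2 fold change −2.09). Zfp980, which starts at the other end of the cluster from Zfp534, had 655, 709 and 671 CPM in WT and 196 and 229.8 CPM in KO (−1.67). Zfp985 had 107, 117 and 109 CPM in WT and 33.7 and 39.8 CPM in KO (−1.59). These genes lie 159.9 to 2042.5 kb from the first cluster gene, so the lower levels were spread along its length.

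Zfp992 had 169, 178 and 175 CPM in WT and 56.1 and 63.1 CPM in KO (log2 fold change −1.54). Zfp990, the first gene of the cluster, had 285, 306 and 291 CPM in WT and 97.6 and 109.6 CPM in KO (−1.51). Zfp988 had 174, 195 and 185 CPM in WT and 60.4 and 73.4 CPM in KO (−1.46). Zfp979, whose window is 96.4% identical to that of Rex2, had 488, 494 and 496 CPM in WT and 192 and 216 CPM in KO (−1.27). Near identity of the start went with differing fold changes in Rex2 (−2.26) and Zfp979 (−1.27), but with similar ones in Rex2 and Zfp600 (−2.20). Whether the start bears on the change was not tested, and reads shared between copies limit these single values.

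The rest of the cluster fell into a middle and a low range. Zfp982, Zfp987 and Zfp991 had log2 fold changes of −1.43, −1.31 and −1.28. Zfp993 had 30.0, 28.2 and 31.8 CPM in WT and 13.7 and 16.4 CPM in KO (−0.99). The smallest differences were at the distal end. Zfp984 had 138, 141 and 135 CPM in WT and 91.0 and 99.3 CPM in KO (−0.53). Zfp933, the last gene, had 22.2, 21.5 and 23.0 CPM in WT and 17.8 and 20.4 CPM in KO (−0.22, SE 0.07). WT and KO libraries did not overlap in any of the 17 genes, which held in the lower direction for 30.7% of all tested genes.

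**Figure D1:**
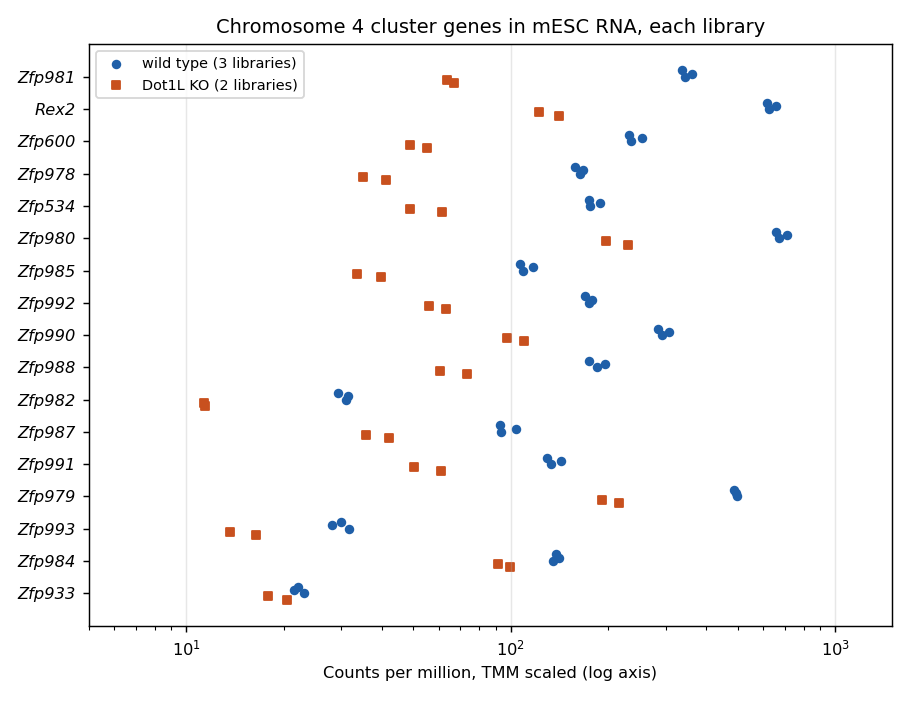
Level of each chromosome 4 cluster gene in mESCs, in CPM scaled with TMM on a log axis, with circles for the 3 WT libraries and squares for the 2 KO libraries. Genes are ordered by log2 fold change; the 2 genotypes are separate in all 17 genes, widest in Zfp981 and narrowest in Zfp933, and levels of different genes are not scaled by length.

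The 2 KO libraries differed from each other in the same direction throughout the cluster. KO replicate 2 was above KO replicate 1 in 17 of 17 genes, by 1.16 times at the median and at most 1.26 times, against 49.1% of all tested genes. Dot1l itself was lower in KO replicate 2, with 71.5 CPM against 81.4 CPM. Among WT libraries, the highest was at most 1.13 times the lowest, and replicate 2 was highest in 14 of the 17 genes. The cluster log2 ratio of summed levels was −1.65 with all libraries, −1.55 without KO replicate 1 and −1.75 without KO replicate 2.

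**Figure D2:**
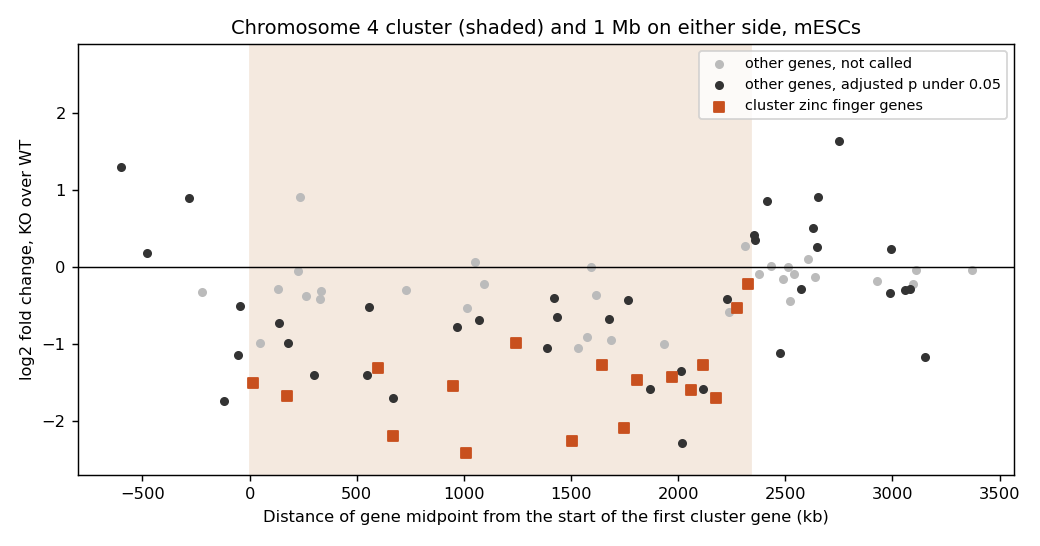
Log2 fold change of KO over WT mESCs (vertical axis) by distance of the gene midpoint from the start of the first cluster gene in kb, with the cluster shaded and 1 Mb shown on either side. Squares are the 17 cluster genes, and dots are other tested genes, dark where the adjusted p was under 0.05; within the shaded span no other gene was called higher, while both directions occur outside it.

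Other genes lie between the first and last member. Of 37 tested, 18 were called lower and 0 higher (edgeR, adjusted p under 0.05), against 21.6% and 22.3% of all genes, with a median log2 fold change of −0.65. At an unadjusted p under 0.05 there were 22 in either direction, against 50.6% of all genes. Gm13170 was at 5.49 ± 0.596 CPM in WT (SD, n = 3) and 1.69 ± 0.0509 CPM in KO (SD, n = 2), a log2 fold change of −1.70 (SE 0.16). Gm13155 and Gm8178 had equal means and SDs in both genotypes, each with a log2 fold change of −1.59. Their reads cannot be told apart here, though both count among the 18. Most of the 37 genes were at a few CPM or less. Znf41-ps was higher, at 105 ± 1.38 CPM in WT (SD, n = 3) and 39.7 ± 2.22 CPM in KO (SD, n = 2). Its log2 fold change was −1.40 (SE 0.05). Gm13237, at 22.3 CPM in WT and 23.2 CPM in KO on average, had 0.06 and was not called. Some of the 37 may hold reads of the cluster copies, which was not tested, so they are no separate measure of the region. In the 1 Mb on either side, 33 genes were tested, 9 were called lower and 11 higher, and the median was −0.09. Among these Disp3 had a log2 fold change of 1.64 and Gm13223 one of −1.15.

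Reads shared between copies limit the value of any single cluster gene. Estimated counts are whole numbers where no read was divided, and fractions otherwise. None of the 85 values of the cluster was whole (0 of 17 genes in 5 libraries, within 0.001). The shares were 42.7% of values over all genes and 4.42% among the members not placed in the cluster. These sets were not matched for level, so the contrast does not measure how unusual read sharing is in the cluster. The summed level above does not depend on how reads were divided within the cluster. It can still include reads of copies elsewhere, and that was not tested.

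Members not placed in the chromosome 4 cluster moved less, and in both directions. They are the 48 that lie elsewhere and the 5 without a RefSeq position, which may or may not belong to the cluster. Of 53, 50 were tested, 26 were called lower and 4 higher, against 21.6% and 22.3% of all genes, and 20 were not called. Their median log2 fold change was −0.22, and their summed level was 1857, 1944 and 1871 CPM in WT and 1409 and 1489 CPM in KO, or 76.6% of WT. Zfp957, Zfp967 and Zfp969 had too few counts in mESCs to be tested, with at most 0.104 CPM in any library. Over all 67 tested members, 43 were called lower and 4 higher, and the median was −0.35. At an unadjusted p under 0.05 there were 47, against 50.6% of all genes, and 52 had a log2 fold change under 0, against 49.9%. The number called higher was 0 without KO replicate 1 and 1 without any single WT library. WT and KO libraries did not overlap in 44 members that were lower and 9 that were higher, against 30.7% and 31.8% of all genes.

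The 4 genes of the chromosome 7 group were all called lower, against 21.6% of all genes. Zfp936 had 137, 146 and 142 CPM in WT and 67.9 and 84.3 CPM in KO, a log2 fold change of −0.89 (SE 0.07). Zfp977, Zfp976 and Zfp975 had log2 fold changes of −0.73, −0.57 and −0.54. Within the chromosome 4 cluster, only Zfp984 and Zfp933 had smaller changes than Zfp936.

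Of the 5 genes without a RefSeq position, 4 were tested and all were called lower, against 21.6% of all genes. Zfp989 had 94.5, 97.9 and 91.0 CPM in WT and 41.0 and 44.9 CPM in KO (log2 fold change −1.14). Zfp986 had 10.8, 12.2 and 9.47 CPM in WT and 3.16 and 5.07 CPM in KO (−1.39). Zfp997 and Zfp998 had log2 fold changes of −0.77 and −0.60. Whether these genes belong to the chromosome 4 cluster cannot be read from the annotation used here.

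In the larger groups on chromosomes 17 and 2, changes were small. The counts of called genes below stand beside 21.6% lower and 22.3% higher over all genes. On chromosome 17, 5 of 10 genes were called lower and none higher, with log2 fold changes from −0.49 for Zfp946 to 0.06. On chromosome 2, 8 of 9 were tested, Zfp966 (−0.35) and Zfp973 (−0.24) were called lower, and Zfp972 was called higher (0.34). Of the 3 genes on chromosome 8, none was called, at log2 fold changes between −0.06 and 0.08. Outside all groups, 21 of 22 genes were tested, of which 11 were called lower and 3 higher.

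Of the genes outside the groups, Zfp951 had 71.7, 76.8 and 72.8 CPM in WT and 33.99 and 38.5 CPM in KO (log2 fold change −1.02). It was the only one of them with a log2 fold change at or under −1 and counts in every library. Zfp935 had 24.4, 21.5 and 0 estimated counts in WT and 0 in both KO libraries, so WT replicate 3 looked like the KO libraries and no fold is given. With Zfp935 at the bound that 3 counts over the KO libraries allow, the median of the members was still −0.35. The genes called higher were Zfp940 (0.17), Zfp974 (0.21), Zfp952 (0.23) and Zfp972 (0.34), all by small amounts.

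**Figure D3:**
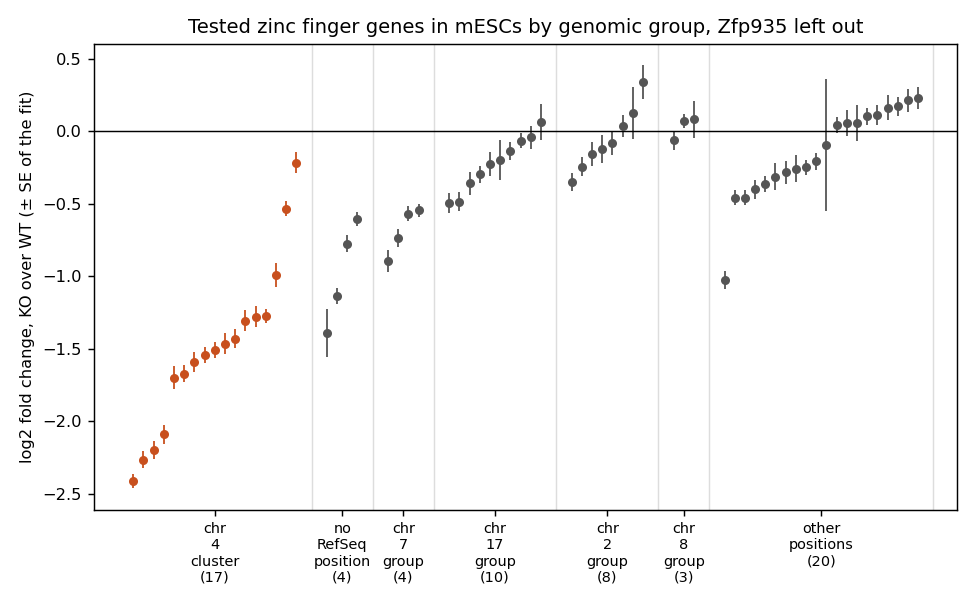
Log2 fold change of KO over WT in mESCs with the standard error of the fit, for 66 of the 67 tested members (Zfp935 is left out), by genomic group with the number of genes in brackets. The chromosome 4 cluster reaches −2.41, the 4 genes without a position and the chromosome 7 group all lie under 0, and the other genes lie between −0.49 and 0.34 except Zfp951 at −1.02.

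RNA for the partners of KRAB zinc finger proteins was also measured. Of 20 genes for Trim28 and its partners, 9 were called lower and 0 higher, against 21.6% and 22.3% of all genes, with a median log2 fold change of −0.09. Trim28, the scaffold that KRAB domains bind, had 1163 ± 30.1 CPM in WT (SD, n = 3) and 1099 ± 39.4 CPM in KO (SD, n = 2) and was not called (edgeR adjusted p of 0.101). Setdb1, the lysine 9 methyltransferase, had a log2 fold change of −0.13 (SE 0.04). Atf7ip, which stabilizes Setdb1, had −0.58, and Smarcad1, a chromatin remodeller, had −0.63. Atrx, another remodeller, had −1.17. It is X-linked, and 88.4% of the 596 X-linked genes at 1 CPM or more had a log2 fold change under 0, against 49.8% elsewhere. The median log2 fold change of these X-linked genes was −0.65, against 0.00 (0.0015) elsewhere. Whether this difference between the genotypes bears on the other changes was not tested. Without KO replicate 2, 15 of the 20 genes were called.

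Of 15 studied KRAB zinc finger genes outside the 70, 4 were called lower and 3 higher, near the shares of all genes (21.6% and 22.3%). Zfp809, known for silencing murine leukaemia virus type retroviruses, had a log2 fold change of −0.79 (SE 0.05), and Zfp568 had −0.36. Rsl1, a repressor of sex-biased liver genes, had 0.52. Of 302 tested genes named Zfp outside the 70, 82 were called lower and 52 higher, with a median of −0.03. Zfp112 (−1.43) and Zfp677 (2.01) were the extremes. These 302 include genes of the list of 15 and of the 2-cell list below. Of 22 tested genes of the 2-cell stage, 14 were called higher and 1 lower, and Zscan4f had a log2 fold change of 1.57. The Zscan4 genes are near copies of each other, so their single values are uncertain too.

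H3K79 methylation over the members was read from the peak lists, which the RNA comparison did not use. A gene counted as marked where its span overlapped a peak by at least 1 bp in both WT lists. All 17 cluster genes were marked by H3K79me2 and all 17 by H3K79me3. Over 18544 tested genes with a position, 44.4% carried H3K79me2 and 11.2% carried H3K79me3. Among 7532 genes outside the 70 with a mean of at least 20 CPM, a level that every cluster gene reached on average, the shares were 85.6% and 21.8%. Long spans meet peaks more easily than short ones, and the overlapping spans of Zfp993 and Zfp978 count peaks of their neighbours. Near copies may also share chromatin reads. How such reads were placed is not given in the sources used here, so the marking of a single copy, and its coverage below, is uncertain.

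Coverage of the gene span by called peaks varied widely within the cluster. H3K79me2 peaks covered 65.2 and 65.1% of Zfp534, 57.9 and 56.6% of Zfp980, and 62.4 and 57.5% of Zfp987 in the 2 WT lists. Zfp981, with the largest fold change, had 28.0 and 22.9%, and Rex2 had 18.8 and 15.8%. Zfp992 had the lowest coverage at 3.94% in both lists. The order of coverage was thus not the order of the RNA changes, since Zfp534 fell less than Zfp981. Coverage is a share of annotated spans of unlike length, so it does not rank the mark between genes. A link between the mark and the RNA changes was not tested.

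H3K79me3 covered less of each gene. It was called over 29.4 and 21.4% of Zfp534, 18.1 and 12.8% of Zfp600 and 9.27 and 5.46% of Rex2. Zfp981 had 2.10 and 1.06%, from 2 peaks in 1 list and 1 in the other. The median over the cluster was 8.98 and 4.93%, and the highest values were 31.7 and 23.2%. WT replicate 2 had fewer H3K79me3 peaks in all (7338 against 19800), and its coverage was below that of replicate 1 in 15 of the 17 genes.

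In the KO lists, no H3K79me2 peak lay over any of the 65 members with a position, and none lay in the whole chromosome 4 span, which held 353 and 318 in WT. In both KO lists, 0.0108% of genes carried H3K79me2 and 0.0971% carried H3K79me3. The H3K79me3 lists placed 313 and 223 WT peaks in the span, of 19800 and 7338 in all. In KO, 3 and 8 peaks lay in the span, of 178 and 328 in all. Whether the span draws called peaks without the mark was not tested. The KO peaks over members met Zfp600, Zfp978, Zfp982 and Zfp993, and covered at most 0.451% of a gene. Among them was a peak of 198 bases in Zfp982 for which the authors' list gives a fold enrichment of 4.56 and 11.1 as −log10 q. With peak lists from 2 libraries per genotype, no test of these counts was made.

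**Figure D4:**
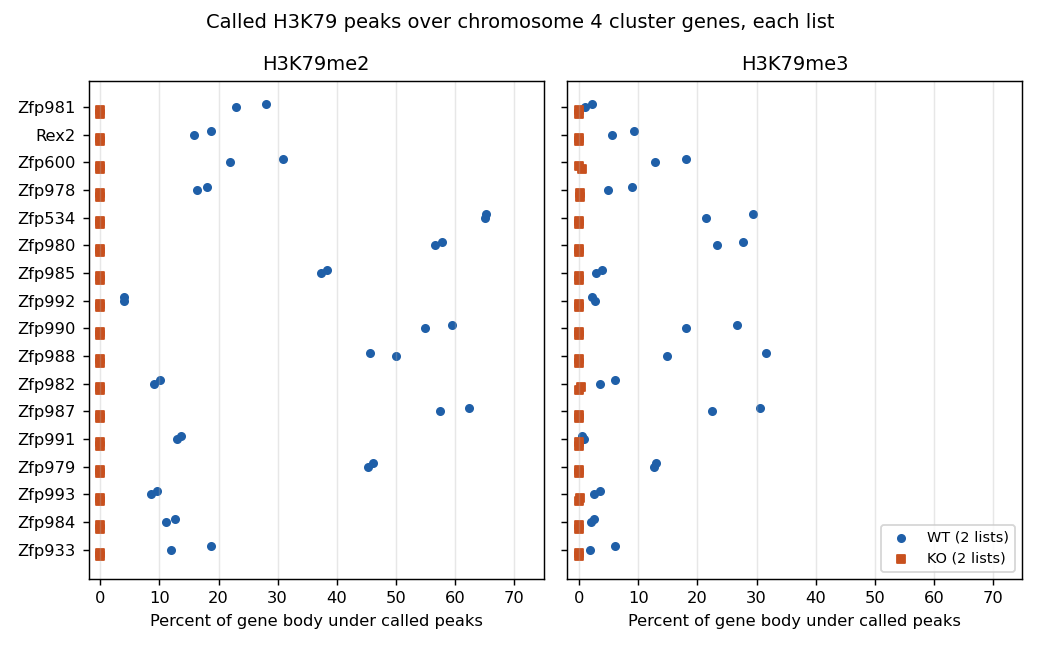
Percent of each cluster gene's annotated span under called peaks of H3K79me2 (left) and H3K79me3 (right), in the 2 WT lists (circles) and the 2 KO lists (squares), with genes in the order of their RNA change. Every gene has WT peaks of both marks; KO values are 0 for H3K79me2 and at most 0.451% for H3K79me3.

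Outside the cluster, 32 of 48 members carried H3K79me2 in both WT lists and 11 of 48 carried H3K79me3. The marked genes outside the cluster had a median log2 fold change of −0.25 for H3K79me2, against 0.00 (−0.0021) for the 14 tested genes without it. For H3K79me3 the medians were −0.54 over 11 marked and −0.12 over 35 unmarked genes. Over all tested genes the same medians were −0.05 and 0.11 for H3K79me2, and −0.09 and 0.02 for H3K79me3. These are descriptions across genes, which are not independent replicates, and marked genes also differ in level.

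Treatment of 8-cell embryos with SGC0946 gave no called gene in the whole table (0 of 14351, edgeR adjusted p under 0.05, or 0%), and none among the 35 members. At an unadjusted p under 0.05 there was 1 member, Zfp944 (log2 fold change 0.75), against 8.15% of all genes. DESeq2 called 126 genes in the table and no member, and leaving out SGC0946 replicate 2 gave 365 genes and no member. A log2 fold change under 0 was found in 12 members, against 48.6% of all genes. The groups did not overlap in 4 members that were lower and 8 that were higher, against 19.2% and 20.1% of all genes. The mESC and embryo tables were counted and normalized separately, so levels are not compared between them.

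By symbol, 4 cluster genes were in the embryo table. Rex2 had 19.1 and 15.9 CPM with DMSO and 16.2 and 14.5 CPM with SGC0946, a log2 fold change of −0.19 (95% interval −0.85 to 0.48). Zfp600 had 9.61 and 11.2 CPM with DMSO and 11.4 and 8.91 CPM with SGC0946 (−0.04, −0.84 to 0.76). Zfp534 had 25.2 and 23.9 CPM with DMSO and 20.5 and 24.4 CPM with SGC0946 (−0.13, −0.71 to 0.45). Zfp933 had 9.80 and 11.2 CPM with DMSO and 16.7 and 10.8 CPM with SGC0946 (0.39). The groups overlapped in all 4 genes. Summed, their level was 63.7 and 62.2 CPM with DMSO and 64.8 and 58.6 CPM with SGC0946, or 98% of DMSO.

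Under older symbols, 9 more cluster genes were counted. Zfp981, listed as Gm13247, had 25.3 and 51.9 CPM with DMSO and 29.9 and 38.5 CPM with SGC0946, a log2 fold change of −0.17 (95% interval −0.83 to 0.48). Zfp985, listed as Gm13154, had 83.1 and 113 CPM with DMSO and 81.2 and 93.2 CPM with SGC0946 (−0.17). Zfp979, listed as 2610305D13Rik, had 54.9 and 71.7 CPM with DMSO and 65.0 and 60.6 CPM with SGC0946 (−0.01). The pools of 1 group differed more than the groups. Over all 13 rows the summed level was 331 and 446 CPM with DMSO and 358 and 381 CPM with SGC0946, or 95.1% of DMSO.

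For Rex2, Zfp600 and Zfp981 the embryo intervals lay apart from those in mESCs, while for Zfp984, Zfp933 and Zfp992 they overlapped. The 95% intervals in mESCs were −2.39 to −2.14 for Rex2, −2.33 to −2.07 for Zfp600 and −2.52 to −2.30 for Zfp981, and those in embryos reached down to −0.85, −0.84 and −0.83. For Zfp984 the intervals were −0.64 to −0.43 in mESCs and −0.64 to 0.37 in embryos, and for Zfp933 −0.37 to −0.06 and −0.40 to 1.17. The comparisons differ in cells, strain, agent and duration, and the difference between them was not tested. They also differ in counting. No mESC value of the cluster was a whole number, while 100% of the embryo values were. Reads shared between copies may therefore have been handled differently in the 2 tables, which limits this contrast for single genes. For Zfp992 (Gm13251), at 0.0737 to 1.47 CPM, the interval in embryos reached from −3.41 to 3.64 and shows nothing.

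**Figure D5:**
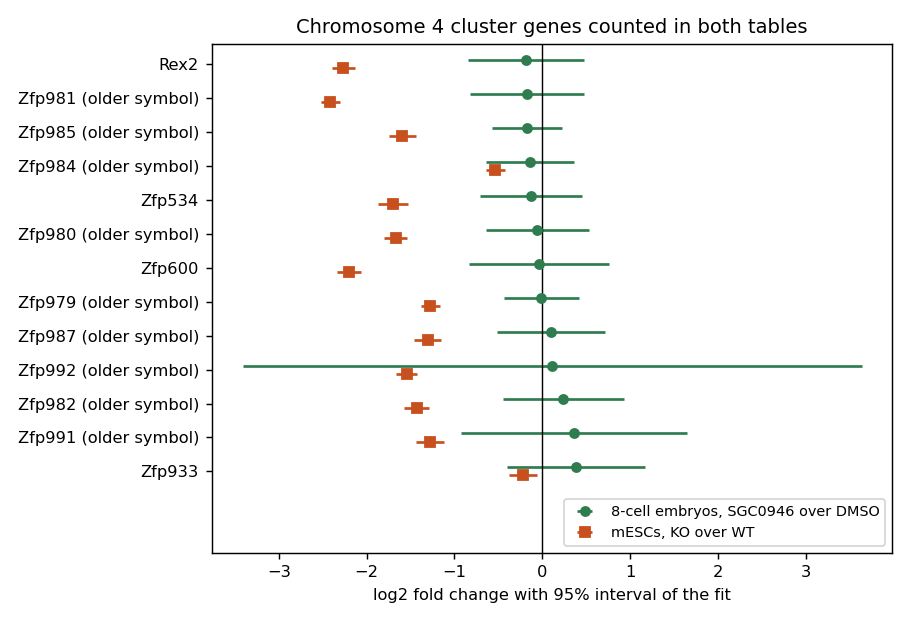
Log2 fold change with the 95% interval of the fit for the 13 chromosome 4 cluster genes counted in both tables, in embryos (circles, SGC0946 over DMSO) and mESCs (squares, KO over WT). Embryo values lie between −0.19 and 0.39 and every interval includes 0; mESC values lie between −2.41 and −0.22.

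Members outside the cluster varied more in embryos where counts were low. Zfp963 had 2.43 and 1.55 CPM with DMSO and 0.801 and 0.152 CPM with SGC0946, a log2 fold change of −2.06 (SE 1.35). Zfp941 had 0.442 and 1.09 CPM with DMSO and 2.13 and 2.65 CPM with SGC0946 (1.63, SE 1.10). Zfp957 had 5.75 and 10.9 CPM with DMSO and 3.24 and 4.75 CPM with SGC0946 (−1.05, SE 0.51). None of the 3 was called, although their groups did not overlap. Zfp946 (1.12, SE 1.37), Zfp959 (−1.09, SE 0.94) and Zfp937 (0.98, SE 0.69) were not called either. These values rest on single libraries. Leaving out 1 library gave −0.14 to 1.60 for Zfp937, whose sign turned, 0.07 to 1.72 for Zfp946 and −1.59 to −0.32 for Zfp959. The same ranges were −3.67 to −1.31 for Zfp963, 1.12 to 2.43 for Zfp941 and −1.44 to −0.52 for Zfp957.

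The outside members with the highest CPM in embryos differed little between groups. Zfp936 had 148 and 136 CPM with DMSO and 140.4 and 155 CPM with SGC0946, a log2 fold change of 0.06 (95% interval −0.26 to 0.38). Zfp932 had 132 and 129 CPM with DMSO and 141 and 139 CPM with SGC0946 (0.10). Zfp960 had 58.3 and 46.1 CPM with DMSO and 43.5 and 54.8 CPM with SGC0946 (−0.09). Zfp935 had 24.9 to 41.9 CPM over the 4 embryo libraries. Summed over the 31 members outside the cluster, the level with SGC0946 was 104% of that with DMSO.

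The 17 tested rows of members under older symbols gave 0 calls. At an unadjusted p under 0.05 there were 2, Zfp974 (1700049G17Rik, log2 fold change −0.86) and Zfp995 (2210404O09Rik, 1.47), against 8.15% of all genes. Of the corepressor genes, 18 were tested and 0 called, with 1, Hdac1 (−0.29), at an unadjusted p under 0.05, again against 8.15%. Trim28 had a log2 fold change of −0.21 (SE 0.11), and Setdb1 had −0.12 (SE 0.16). Dot1l, whose protein the inhibitor blocks, had 278 and 256 CPM with DMSO and 221 and 214 CPM with SGC0946 (−0.29, edgeR adjusted p of 0.582). Of 6 oocyte markers all were above 1 CPM, with summed levels of 70.7 to 73.5 CPM with DMSO and 62.6 to 83.6 CPM with SGC0946. Summed markers of cumulus cells were 41.2 to 44.2 and 38.0 to 38.3 CPM, with 3 of 8 at 0 in every library, and those of fibroblasts 1.66 to 3.35 and 0.534 to 2.71 CPM, also with 3 of 8 at 0. Summed pluripotency markers were 1614 to 1697 and 1106 to 1280 CPM, those of primitive endoderm 417 to 444 and 384 to 428 CPM, and those of cleavage embryos 3045 to 3257 and 2273 to 2741 CPM. No marker was called, and their part in the values above was not tested.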

How the data were processed

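Members, gene lists and alternatives were chosen with earlier results of these data known. The authors' deposited mESC table holds estimated counts (expected counts) per gene, and their embryo table holds read counts per gene. Kallisto, STAR, HTSeq, Bowtie2, MACS2 and the build mm10 are named in the submitters' processing notes, without versions; how reads that fit several genes were handled is not given in the sources used here. Estimated counts were rounded. Genes were filtered with filterByExpr, scaled with TMM and tested with the quasi-likelihood test of edgeR 4.0.16 in R 4.3.3, mESCs (3 WT, 2 KO) and embryos (2 against 2) apart, with Benjamini-Hochberg adjustment over the whole table and a threshold of 0.05. The script was tested on simulated data.

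The authors' deposited peak lists have the narrowPeak layout, 1 list per library, and their enrichment (fold), score and −log10 q values are the authors' own. The −log10 p values of the deposited lists were not used. Spans, windows and older symbols came from RefSeq (GRCm38.p6). Positioned members were chained where the next began within 2 Mb, and chains of 3 or more were called groups. Windows were aligned with Biopython 1.88.

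Named were Zfp981, Zfp600, Rex2, Zfp534 and, per table, the 6 other members with the largest change at a mean of at least 1 CPM. Also named were the 3 members with the highest mean CPM per table, and per list up to 3 called genes in each direction. The rest of the cluster, other members, Znf41-ps and Gm13237 were named after their values were seen. The input libraries were not used here. Depth of the peak libraries is unknown.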

Additional observations from a re-analysis of the deposited data

How the results depend on the processing

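The alternatives were 2 other scalings in edgeR (by DESeq2 size factors or by the upper quartile), DESeq2 1.42.0 itself, a filter left off, a filter of 10 counts per library, a replicate block, and each library left out. Members called lower ranged from 38 to 43, and 36 of them were called lower in every fit. Of the cluster, 16 were called lower in every fit and all 17 had a log2 fold change under 0 in each. The number of members called higher rested on few genes: 4 as reported, 0 in DESeq2, 1 with the replicate block, 6 with upper-quartile scaling (39 lower), and 0 to 4 without 1 library. Upper-quartile scaling raised the median of all genes to 0.07 and called 63.5% of called genes higher against 50.8%. The log2 ratio of the summed cluster was −1.75 to −1.55 without 1 library and −1.73 without Zfp933, Zfp984 and Zfp993, a choice made after seeing the data. Called corepressor genes numbered 7 to 15 without 1 library, and 15 without KO replicate 2.

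Correlations of deviations between libraries with equal replicate numbers were 0.022 and −0.011 in mESCs and 0.081 in embryos. In a group of 2 libraries the deviations mirror each other, so these values do not settle whether the libraries were paired. With the replicate block, 8160 mESC genes were called against 8572.

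In embryos, members called stayed at 0 under all these alternatives, while all genes called went from 0 to 126 in DESeq2, 111 without a filter, 23 with 10 counts per library, 171 with the replicate block and 4 to 365 without 1 library. Of the listed genes, 3 were called in DESeq2, 3 without a filter and 4 with the replicate block. Of these, other Zfp genes gave 2, 2 and 3, and the flanks of the chromosome 4 span gave 1 each. Without 1 library, listed genes called ranged from 0 to 8, other Zfp genes from 0 to 6, and corepressor, 2-cell and flank genes from 0 to 1. The embryo biological coefficient of variation was 0.442, against 0.0467 in mESCs, which limits what 2 pools a group can show.

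Among peaks, a −log10 q of at least 5 left H3K79me2 over 41 members and H3K79me3 over 20, of which 17 and 13 were in the cluster. An overlap of 500 bp gave 44 and 21, of which 17 and 13 were in the cluster.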
